A study of Mus musculus with 6 samples.

Results

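A set of 9 genes was described that are known for their high expression in naive and resting T cells, Tcf7, Lef1, Klf2, Klf3, Satb1, Bach2, Foxo1, Foxp1 and Dapl1, out of 23183 gene symbols counted in each library. They were taken by their symbols, from a list made with earlier results of these data known, and all 9 passed the filter on low counts that left 12226 genes to test. The cells were T helper 9 (Th9) cells, CD4+ effector cells that make IL-9, grown from wild-type C57BL/6N mice and taken on day 3. Naive CD4+ T cells of the spleen were given antibodies to CD3e, bound to the plate, and to CD28, in solution, at 1 µg/ml each, which stand in for antigen and costimulation. The medium held TGF-β1 at 2 ng/ml and IL-4 at 10 ng/ml, which drive the Th9 fate, and an antibody to IFN-γ at 10 µg/ml. The SPC group also received sphingosylphosphorylcholine (SPC, d18:1), a bioactive lysophospholipid, at 30 µM. The control group had the same culture without it, and each group held 3 libraries from 3 independent experiments.

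A naive T cell is held at rest by a set of transcription factors. FOXO1 drives Klf2 and the genes of lymph node homing and IL-7 sensing, TCF1 (made by Tcf7) and LEF1 keep the naive and memory potential, BACH2 blocks effector genes, and SATB1 folds the chromatin of T cell gene loci. Signals through the T cell receptor and phosphoinositide 3-kinase lower many of these genes or push their proteins out of the nucleus as the cell grows and becomes an effector. The comparison asks whether cells that differentiated with SPC had more or less of these transcripts on day 3. No library of naive or earlier cells was available, so loss or gain since the start was not measured.

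None of the 9 genes was called in the test with group alone. Once the replicate number was part of the test 4 were called, beside 7.08% of all tested genes. These 4 did not move in 1 direction. With the replicate number as a block, Klf3, Bach2 and Foxp1 were higher with SPC by 1.42-fold, 1.34-fold and 1.19-fold, and Satb1 was 1.73-fold lower. Tcf7, Lef1 and Foxo1 did not pass either fit, and the 95% intervals of their log2 fold changes lay between -0.23 and 0.25. Lef1 (0.13, adjusted p = 0.00618) and Foxo1 (-0.12, adjusted p = 0.0236) were called in the blocked fit without the pair numbered 1. That fit called 2112 genes in all, against 866 with every pair. In the blocked fits without number 2 or 3, the adjusted p of Lef1 and Foxo1 lay between 0.754 and 0.983. Blocked fits without a number keep few libraries beside their terms, so their calls are a description. Klf2 and Dapl1 were counted with 115 reads or fewer per library, and neither was called. Summed over the 9 genes, the level was 925.8, 984.8 and 980.5 CPM in SPC cells, against 948.8, 944.4 and 942.4 CPM in control cells, and the groups overlapped. Levels are given as CPM, a gene's share of the counts of its library, scaled between libraries with edgeR's TMM factors.

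In the test with group as its single term, none of the 9 genes was called at an adjusted p under 0.05 in edgeR's quasi-likelihood test, beside 0.483% of all tested genes called, 0.327% higher and 0.155% lower. At an unadjusted p under 0.05 there were 3 higher and 2 lower genes, beside 5.86% and 4.37% of all tested genes. DESeq2 called 2 higher and 1 lower, Klf3, Bach2 and Satb1, beside 1.53% and 0.868% of the genes it gave an adjusted p. With the block, 3 of the 9 were called higher and 1 lower, beside 4.02% and 3.07% of all tested genes. The libraries of the groups did not overlap for 5 of the 9 genes, 3 with SPC above control and 2 below, beside 8.67% and 7.8% of all tested genes. The median log2 fold change of the 9 genes was 0.09, beside 0.00193 over all tested genes. The libraries were treated as paired by number, which the sample titles do not state and which rests on the counts themselves. The fit with the block is called paired below, the other unpaired, and the paired p is given for genes described one by one where it changes a call.

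**Figure D1:**
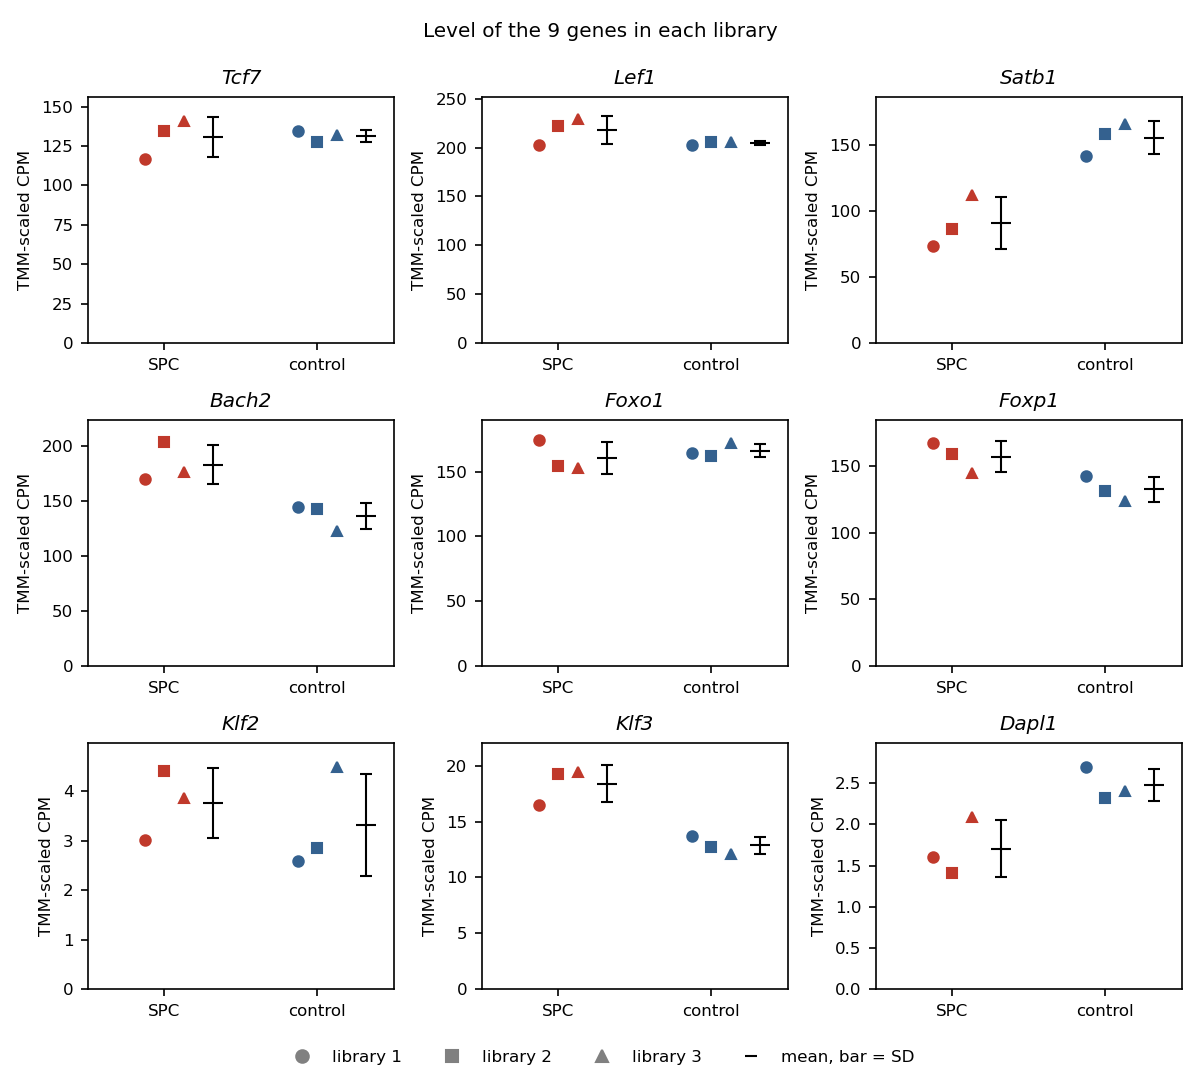
TMM-scaled CPM of the 9 genes in the 3 SPC libraries (red, left) and the 3 control libraries (blue, right), with the library number as the symbol and the mean ± SD in black. Satb1 and Dapl1 lay lower in every SPC library than in any control library, and Klf3, Bach2 and Foxp1 lay higher.

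The identity of the cells was checked on markers. The 10 T cell marker genes summed to 2221 to 2573 CPM in SPC and 2214 to 2299 CPM in control libraries. None of these 10 was called in the group-only fit. With the block Cd5 and Cd6 were higher and Cd2 lower, 30% of the list beside 7.08% of all tested genes. Il9 had 1137 ± 239 CPM in SPC cells and 538 ± 18.8 CPM in control cells (SD, n = 3 each), higher in both fits (adjusted p = 0.0189 and, with the block, 0.00115). The 4 Th9 markers Il9, Irf4, Batf and Gata3 summed to 2858 to 3404 CPM in SPC and 2251 to 2315 CPM in control libraries. Of these, 3 had a log2 fold change above 0, and the lowest was -0.17. The group-only fit called 1 higher, beside 0.483% of all tested genes. With the block 2 were called higher, 50% beside 7.08%. Il2ra, the IL-2 receptor alpha chain gene of activated T cells, had 2417 CPM in SPC cells and 2828 CPM in control cells. Markers of other cells were low. The summed level lay between 3.75 and 4.86 CPM in SPC and 3.35 and 3.64 CPM in control libraries for 6 B cell genes, between 1.80 and 2.35 and between 1.96 and 2.32 CPM for 7 myeloid genes, between 4.16 and 6.34 and between 2.63 and 3.68 CPM for 6 dendritic cell genes, and between 1.40 and 1.69 and between 2.05 and 2.62 CPM for 5 NK cell genes. The 2 CD8 genes summed to 1.88 to 2.43 CPM in SPC and 1.72 to 2.00 CPM in control libraries, and the 5 erythroid and platelet genes found to 0.919 to 1.35 and 0.616 to 1.36 CPM. Ms4a1, Clec9a and Ncr1 had no count in any library. With the block 1 dendritic cell gene was called higher and 1 myeloid gene lower, each of 2 tested in its list, beside 7.08% of all tested genes. The regulatory T cell genes Foxp3 and Ikzf2 summed to 75.97 to 87.8 CPM in SPC and 54.5 to 57.3 CPM in control libraries. Their log2 fold changes ran from 0.42 to 0.68. The block called both higher, 100% of the list beside 7.08% of all tested genes, and the group-only fit called neither. The part of regulatory T cells in the results below was not tested. In bulk RNA, fewer cells with a transcript and less of it per cell cannot be told apart.

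Satb1 (chromosome 17, 51736187 to 51833290, minus strand, mm10) encodes a chromatin organiser that binds AT-rich DNA and keeps T cell gene loci in order. It had 73.8, 86.4 and 112 CPM in SPC cells, against 141.8, 158 and 166 CPM in control cells. Every SPC library lay below every control library, and in both groups the library numbered 1 was lowest and the one numbered 3 highest. Unpaired, the log2 fold change was -0.77 ± 0.14 (SE) with adjusted p = 0.0597, and paired it was -0.79 ± 0.07 with adjusted p = 0.000135, the smallest among the 9 genes. Within pairs, SPC cells had 0.520, 0.547 and 0.677 times the control level. Without SPC library 3 the group-only fit gave -0.96 (adjusted p = 0.0145), and without both libraries numbered 3 it gave -0.91 (adjusted p = 0.0276). The other group-only fits that left out a library or a number did not call it, with adjusted p between 0.0768 and 0.856, the highest without both libraries numbered 2. Satb1 stood above 78.4% of the tested genes by its CPM in SPC cells and above 88.3% in control cells.

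Bach2 (chromosome 4, 32238804 to 32586108, plus strand, mm10) encodes a repressor of the bZIP family that restrains effector differentiation and shares DNA sites with AP-1. It had 170.3, 203 and 176 CPM in SPC cells, against 144, 143 and 123 CPM in control cells. The groups did not overlap, and SPC library 2 was the highest of the 6. Unpaired, the log2 fold change was 0.42 ± 0.10 with adjusted p = 0.109, and paired it was 0.42 ± 0.06 with adjusted p = 0.00283. The pairs gave 1.18, 1.43 and 1.43 times the control level. No group-only fit that left out a library or a number called Bach2, with adjusted p of 0.0883 or more. An antisense gene, Bach2os, overlaps 5.4% of the exonic bases of Bach2 and had 115, 107 and 83 counts in SPC libraries, against 99, 88 and 70 in control libraries, few beside the 4054 to 5609 counts of Bach2 in SPC libraries and 2707 to 4302 in control libraries.

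Bach2 and Satb1 can be set against each other inside a library, where scaling has no part. The ratio of Bach2 to Satb1 counts was 2.31, 2.35 and 1.57 in SPC libraries, against 1.02, 0.903 and 0.74 in control libraries. All 3 SPC libraries lay above all 3 control libraries. This pair was chosen after the values were seen, so the ratio is a description.

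The forkhead genes differed from each other. Foxp1 (chromosome 6, 98925338 to 99522721, minus strand, mm10) encodes a repressor that keeps naive T cells quiescent and competes with FOXO1 at the Il7r gene. It had 167, 159 and 144 CPM in SPC cells, against 142, 130.9 and 124 CPM in control cells. The groups did not overlap, though SPC library 3 and control library 1 were close. Unpaired, the log2 fold change was 0.25 ± 0.08 with adjusted p = 0.331, and paired it was 0.25 ± 0.05 with adjusted p = 0.0145, and the pairs gave 1.18, 1.21 and 1.17 times the control level. Of the 3 blocked fits that left out a number, 1 called Foxp1, and the adjusted p reached 0.125.

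Foxo1 (chromosome 3, 52268336 to 52353221, plus strand, mm10), whose product activates Klf2 and Il7r until phosphorylation by AKT removes it from the nucleus, had 174.5, 154 and 152 CPM in SPC cells, against 164, 162 and 172 CPM in control cells. The groups overlapped, and the SPC libraries held both the highest and the lowest value. The difference was -0.05 ± 0.08 on the log2 scale (adjusted p = 0.887 unpaired, 0.669 paired), with a 95% interval from -0.23 to 0.12. Transcript levels do not show where the protein is.

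Tcf7 and Lef1 encode the HMG-box factors TCF1 and LEF1, which share much of their DNA binding and partners. Tcf7 (chromosome 11, 52252371 to 52283014, minus strand, mm10) had 117, 134.5 and 140.9 CPM in SPC cells, against 134.5, 127 and 132 CPM in control cells. The SPC libraries spread around the control ones. The log2 difference was -0.01 ± 0.08 (adjusted p = 0.988), with a 95% interval from -0.20 to 0.18. Lef1 (chromosome 3, 131110471 to 131224356, plus strand, mm10) had 202, 222 and 229 CPM in SPC cells, against 203, 205 and 206 CPM in control cells. Of the SPC libraries, 2 lay above the control libraries and 1 just below them. The log2 difference was 0.09 ± 0.07 (adjusted p = 0.754), with a 95% interval from -0.07 to 0.25. The control libraries of Lef1 varied by 0.793% of their mean and the SPC libraries by 6.35% (coefficient of variation).

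Klf2 and Klf3 encode zinc finger factors of the Krüppel-like family that bind CACCC and GC-rich boxes. KLF2 is an activator of S1pr1, and KLF3 a repressor that recruits the corepressor CtBP. Klf3 (chromosome 5, 64803388 to 64832901, plus strand, mm10) had 16.5, 19.2 and 19.4 CPM in SPC cells, against 13.7, 12.8 and 12.1 CPM in control cells. The groups did not overlap, and the pair numbered 1 was the closest. Unpaired, the log2 fold change was 0.51 ± 0.11 with adjusted p = 0.0824, and paired it was 0.51 ± 0.10 with adjusted p = 0.011. The pairs gave 1.20, 1.505 and 1.60 times the control level, and all 3 blocked fits that left out a number called Klf3. No group-only fit that left out a library or a number called it, with adjusted p of 0.0515 or more.

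Klf2 (chromosome 8, 72319033 to 72321656, plus strand, mm10) had 3.01, 4.40 and 3.87 CPM in SPC cells, against 2.60, 2.85 and 4.50 CPM in control cells. Control library 3 was the highest of the 6, and the groups overlapped. The difference was 0.19 ± 0.25 on the log2 scale (adjusted p = 0.872 unpaired, 0.564 paired), with a 95% interval from -0.38 to 0.75, which takes in 0 as well as the log2 fold changes of Bach2 and Klf3. Klf2 had 76 to 115 reads per library, for which counting alone gives a coefficient of variation of up to 11.5%, and its libraries varied by 18.7% in SPC cells and 31.1% in control cells. By CPM it stood above 20.1% of tested genes in SPC cells and above 19.0% in control cells.

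Dapl1 (chromosome 2, 59484653 to 59505020, plus strand, mm10), a small gene related to Dap that is used as a marker of naive T cells, had 1.61, 1.42 and 2.09 CPM in SPC cells, against 2.70, 2.32 and 2.41 CPM in control cells. The groups did not overlap, and SPC library 3 came closest to the control libraries. The log2 difference was -0.55 ± 0.22 (adjusted p = 0.423 unpaired, 0.131 paired), with a 95% interval from -1.04 to -0.05. These values rest on 53, 37 and 48 reads in SPC libraries and 79, 70 and 53 reads in control libraries, and counting alone gives a coefficient of variation of 16.4% at 37 reads.

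**Figure D2:**
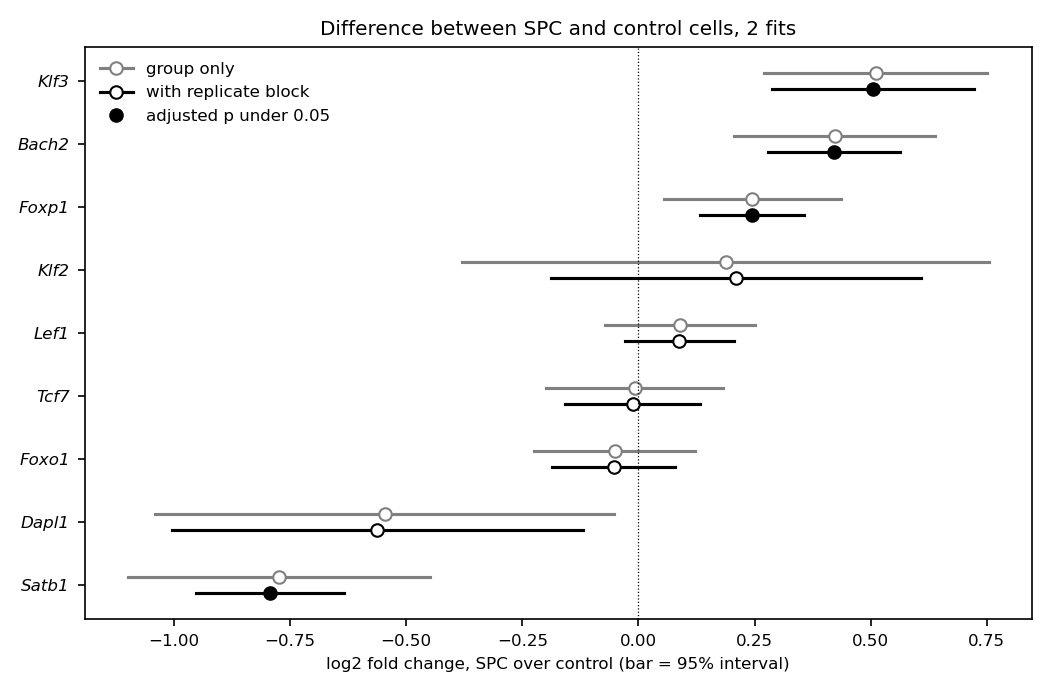
Log2 fold change of each gene, SPC over control, with its 95% interval, from the group-only fit (gray) and from the fit with the replicate number as a block (black, filled where the adjusted p was under 0.05). The block narrowed the interval of Satb1 to -0.95 to -0.63, and the 4 filled points are Klf3, Bach2, Foxp1 and Satb1.

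By pair, Klf3, Bach2 and Foxp1 were higher in all 3 same-numbered pairs and Satb1 and Dapl1 lower in all 3, beside 21.8% of all tested genes higher and 22% lower in all 3 pairs. The other 4 genes changed sign between pairs. In the pair numbered 1, Bach2 and Klf3 had their smallest ratios and Satb1 and Dapl1 their most negative log2 ratios, -0.94 for Satb1 and -0.75 for Dapl1. In the pair numbered 3, Satb1 and Dapl1 had log2 ratios of -0.56 and -0.21.

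**Figure D3:**
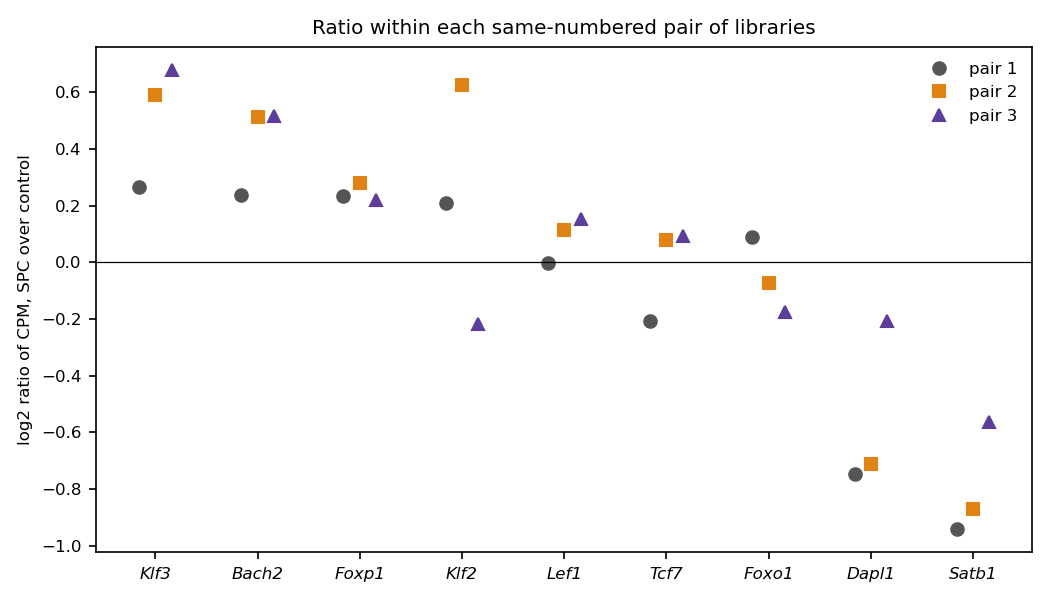
Log2 ratio of the CPM of the SPC library to that of the control library with the same number, for each gene and pair. The 3 pairs of Foxp1 lay between 0.22 and 0.28, while those of Klf2 ran from -0.22 to 0.63.

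Levels were compared between genes as CPM per kilobase of exon, since CPM alone grows with transcript length. Over the merged exons, Tcf7 stood highest, at 49.8 ± 4.80 CPM per kilobase in SPC cells and 50.05 ± 1.39 in control cells, and Lef1 next, at 24.8 ± 1.57 and 23.3 ± 0.185. Foxo1 and Bach2 followed, at 18.5 and 18.4 CPM per kilobase in SPC cells, where their libraries overlapped, and at 19.2 and 13.8 in control cells, where they did not. Foxp1 came next at 11.4 and 9.62, and Satb1 at 4.78 and 8.16 CPM per kilobase in SPC and control cells. Dapl1, Klf2 and Klf3 were lowest, at 2.51, 2.035 and 1.63 in SPC cells, where neighbours overlapped, and at 3.65, 1.80 and 1.14 in control cells, where they did not. With the length of the longest transcript in place of merged exons, 2 of the 9 genes kept their rank in each group. Tcf7 and Lef1 were the top pair and Klf2, Klf3 and Dapl1 the lowest genes under both lengths. By the longest transcript Lef1 led Tcf7, at 59.6 against 52.9 in SPC cells, where their libraries overlapped. In control cells it led at 55.97 against 53.2, where they did not overlap. Satb1 held rank 6 in SPC cells at 14.6 ± 3.16 and rank 3 in control cells at 24.9 ± 1.99 CPM per kilobase of longest transcript.

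The other genes of the naive and quiescent state were read from a list of 37, all of them tested. None was called in the group-only fit, and with the block 6 were higher and 4 lower, 27.0% of the list beside 7.08% of all tested genes in either direction. Of the 10 T cell marker genes, 30% were called with the block. A share above that of all genes was thus not particular to this list. The list's median log2 fold change was -0.06. Btg1, an antiproliferative gene that keeps T cells quiescent, had 195.9, 184.9 and 197 CPM in SPC cells, against 148, 147 and 157 CPM in control cells, with no overlap (log2 0.35 ± 0.07, adjusted p = 0.0635 unpaired, 0.00198 paired). Ets1, a factor of T cell survival and identity, had 371, 432 and 418 CPM in SPC cells, against 498, 527 and 602 CPM in control cells, again with no overlap (log2 -0.41 ± 0.09, adjusted p = 0.103 unpaired, 0.00135 paired). The other genes higher with the block were Klf6, Cdkn1b, which encodes the cell cycle inhibitor p27, Slfn2, whose loss breaks T cell quiescence in mice, Nsg2 and Ramp1, with group-only log2 fold changes between 0.21 and 0.67. The other lower ones were Cdkn2c, which encodes the cell cycle inhibitor p18, Elf1 and Cd27, with -0.45, -0.30 and -0.51. Klf7, 4632428N05Rik and Fam65b had 0.41, -0.20 and 0.21 and were not called.

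Among 18 genes known as targets of FOXO1 or KLF2 or tied to them, none was called in the group-only fit, and with the block 7 were higher and 3 lower, 55.6% of the list beside 7.08% of all tested genes. The median log2 fold change was 0.09. Il7r, the IL-7 receptor alpha chain gene and a standard FOXO1 target, had 9.99, 11.8 and 13.9 CPM in SPC cells, against 16.1, 19.5 and 21.5 CPM in control cells. The groups did not overlap (log2 -0.68 ± 0.15, adjusted p = 0.104 unpaired, 0.000876 paired). The homing receptor gene Ccr7 did not share this direction. Ccr7, which guides cells into lymph nodes, had 99.2, 112 and 150.5 CPM in SPC cells, against 85.5, 97.1 and 132 CPM in control cells, groups that overlapped while each pair was higher with SPC (log2 0.20 ± 0.19, adjusted p = 0.804 unpaired, 0.0376 paired). S1pr1, the receptor gene for exit from lymph nodes, had 19.1, 21.0 and 16.9 CPM in SPC cells, against 18.6, 19.6 and 23.3 CPM in control cells (-0.11 ± 0.12, adjusted p = 0.849). S1pr1 was not called with the block.

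Of the other target genes, Ctla4, the inhibitory receptor gene, had 124.5, 170.2 and 262 CPM in SPC cells, against 286, 396 and 612 CPM in control cells (log2 -1.22 ± 0.31, adjusted p = 0.168 unpaired, 5.03e-07 paired). In both groups library 1 was lowest and library 3 highest, and every pair was lower with SPC. Fasl, the death ligand gene, stood at -0.83 ± 0.22 log2 (adjusted p = 0.173 unpaired, 0.0146 paired), and Bcl6, the repressor gene of follicular helper cells, at 0.80 ± 0.22 (adjusted p = 0.201 unpaired, 0.00653 paired). Trib2, Gabarapl1, an autophagy gene, Pik3ip1, an inhibitor of phosphoinositide 3-kinase, Ccng2 and Il6ra were the other genes higher with the block, with group-only log2 fold changes between 0.24 and 0.63. Itgb7, S1pr4 and Sesn3 had -0.25, 0.18 and -0.20 and were not called.

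Genes of activated T cells were read as the counterpart, since they rise as quiescence is lost. Of 26 tested, 1 was called in the group-only fit, Cd69, an early activation gene that holds cells in lymphoid tissue by opposing S1PR1. It had 44.8, 47.3 and 43.5 CPM in SPC cells, against 24.9, 24.7 and 23.2 CPM in control cells (log2 0.90 ± 0.08, adjusted p = 0.00310 unpaired, 3.9e-05 paired). With the block 5 were higher, Cd69, Cd200, Cd44, Egr2 and Irf4, and 6 lower, Tnfrsf9, Tnfrsf4, Tnfrsf18, Egr3, Il2ra and Ccnd3, 42.3% of the list beside 7.08% of all tested genes, and the 1 call of the group-only fit stands beside 0.483%. The 3 receptors of the TNF receptor family among the lower ones, which carry costimulation, had group-only log2 fold changes of -0.68, -0.30 and -0.30. The list's median was 0.03. Prdm1, which encodes BLIMP1 and is a gene that BACH2 represses, had -1.15 ± 0.57 (adjusted p = 0.553 unpaired, 0.164 paired) at 0.332 and 0.720 CPM in SPC and control cells, and Nr4a1 and Slc3a2 had -0.16 and 0.15.

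Partners of TCF1 and LEF1, which carry Wnt signals or act as corepressors, held no call. Of 20 genes 18 were tested, none was called in edgeR's test with or without the block, and none by DESeq2. In the group-only fit Aes, a short Groucho-family gene, was the 1 with an unadjusted p under 0.05 (-0.17 ± 0.07, adjusted p = 0.472). Pygo2 and Ctnnb1, which encodes β-catenin, had 0.13 and -0.09, and all 18 lay between -0.17 and 0.13. Of 22 listed paralogs of the 9 genes 18 were tested, none was called in the group-only fit and Klf6 was higher with the block. That is 5.56% of the list, near the 7.08% of all tested genes. Foxp3, of the same family as Foxp1, was not in this list and was also higher with the block. Klf6 had 143, 159.6 and 154 CPM in SPC cells, against 129, 129 and 119 CPM in control cells (log2 0.28 ± 0.07, adjusted p = 0.174 unpaired, 0.0149 paired). Foxp4, Dap and Klf7 had 0.14, -0.19 and 0.41. Foxp2, Foxo6 and Tcf7l2 were among those too low to be tested.

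**Figure D4:**
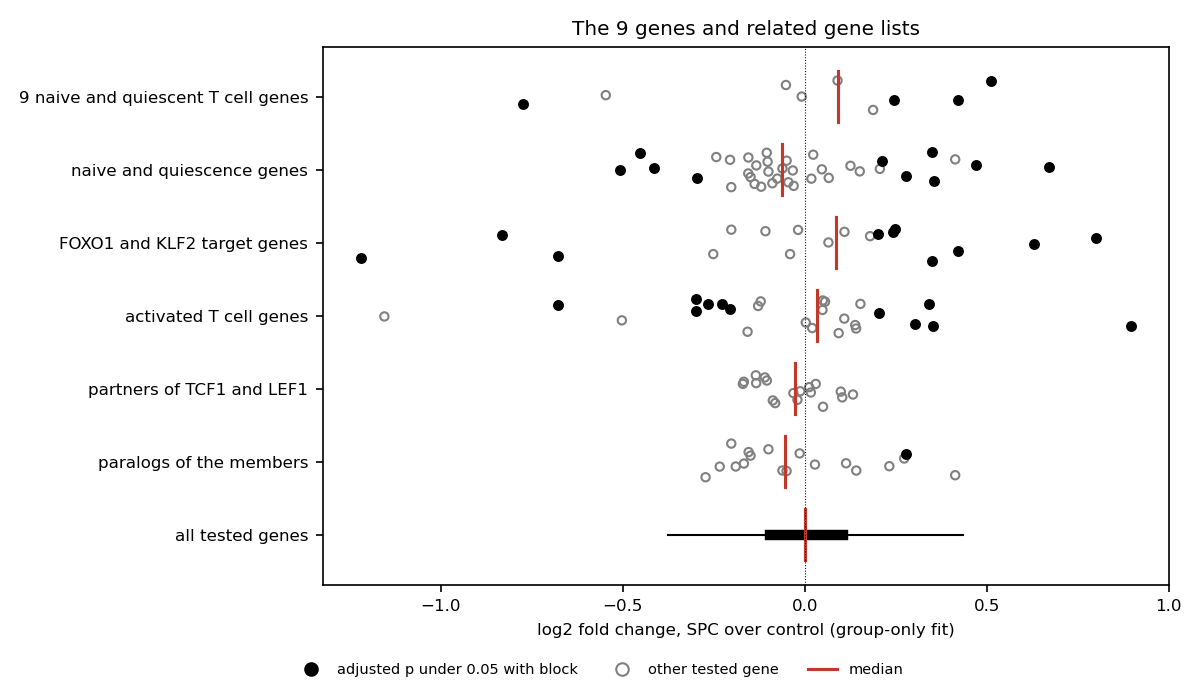
Group-only log2 fold change, SPC over control, of each tested gene of the 9 genes and 5 related lists, with the list median in red and genes called with the block filled. The bottom row gives all tested genes, with the median, the middle part from percentile 25 to 75 as a thick line and percentiles 5 to 95 as a thin line. The medians lay between -0.06 and 0.09, and filled points stood on both sides of 0 in the first 4 rows.

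The genes with the nearest profile were found for the 3 of the 9 genes that varied most over the 6 libraries, Satb1, Dapl1 and Klf2, by the root mean square difference of log2 CPM after each gene's mean was removed. For Satb1 these were Plxnc1, a semaphorin receptor gene (0.0521), Hic1, a transcriptional repressor gene (0.0894), and Il7r (0.0922), of 9457 genes compared over 6 libraries. Plxnc1 had 15.1, 18.8 and 22.5 CPM in SPC cells, against 29.0, 33.6 and 36.8 CPM in control cells, and its library order was that of Satb1. Plxnc1, Hic1 and Il7r had log2 fold changes of -0.82, -0.87 and -0.68, and the block called Plxnc1 (adjusted p = 0.0579 unpaired, 0.000135 paired) and Hic1 (0.0528 unpaired, 0.000206 paired) as it did Il7r. The nearest genes to Dapl1 were Nck2, Tpcn1 and Gfi1 (0.117, 0.131 and 0.140), all lower in each SPC library than in any control library. Of these, the unpaired fit called none (adjusted p between 0.0841 and 0.174) and the block all 3 (0.0282, 0.00413 and 0.001075). Those to Klf2 were Ap3m2, Map9 and Zer1 (0.0839, 0.119 and 0.126), none of them called in either fit. These genes were picked by their profile over the same libraries, so their calls are a description. All genes of a library share its group and number, and what lay behind a shared profile was not tested.

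**Figure D5:**
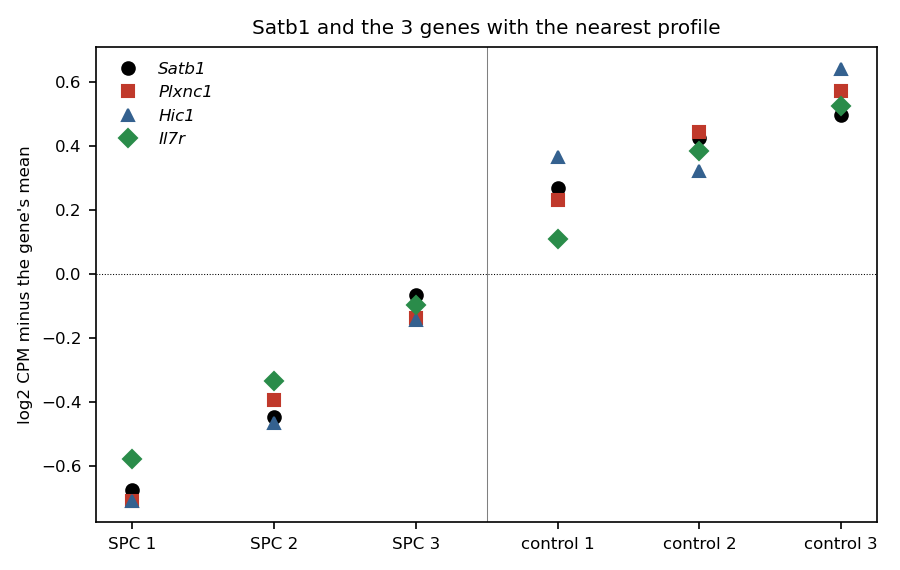
Log2 CPM of Satb1 and of the 3 genes with the nearest profile, each minus its own mean over the 6 libraries, by library. All 4 genes were lowest in SPC library 1 and highest in control library 3.

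The start regions of the 4 genes called with the block are shown for the reader to see their base composition at 1 start each. Each is the 250 bases before the RefSeq start nearest to the annotated gene start (GRCm38.p6), 5′ to 3′ on the gene's strand, with matches to the searched motifs in capitals. The counts are per gene and do not show which start was used.
Klf3 (chr5:64803271-64803520, plus): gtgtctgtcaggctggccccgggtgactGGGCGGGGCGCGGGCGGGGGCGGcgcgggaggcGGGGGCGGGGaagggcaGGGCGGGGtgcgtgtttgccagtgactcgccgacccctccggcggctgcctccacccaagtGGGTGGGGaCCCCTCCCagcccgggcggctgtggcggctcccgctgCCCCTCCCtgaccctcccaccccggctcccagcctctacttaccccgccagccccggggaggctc
Foxp1 (chr6:99520994-99521243, minus): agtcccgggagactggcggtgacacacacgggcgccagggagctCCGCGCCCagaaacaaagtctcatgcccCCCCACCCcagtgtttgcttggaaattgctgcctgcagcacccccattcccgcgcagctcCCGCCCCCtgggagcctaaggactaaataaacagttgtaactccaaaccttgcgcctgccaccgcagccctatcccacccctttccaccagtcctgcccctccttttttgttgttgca
Bach2 (chr4:32417185-32417434, plus): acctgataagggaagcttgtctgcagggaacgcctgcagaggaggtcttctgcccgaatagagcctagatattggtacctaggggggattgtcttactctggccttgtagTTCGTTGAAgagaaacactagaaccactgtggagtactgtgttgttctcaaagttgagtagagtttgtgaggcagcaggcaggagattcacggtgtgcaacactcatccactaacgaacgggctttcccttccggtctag
Satb1 (chr17:51833291-51833540, minus): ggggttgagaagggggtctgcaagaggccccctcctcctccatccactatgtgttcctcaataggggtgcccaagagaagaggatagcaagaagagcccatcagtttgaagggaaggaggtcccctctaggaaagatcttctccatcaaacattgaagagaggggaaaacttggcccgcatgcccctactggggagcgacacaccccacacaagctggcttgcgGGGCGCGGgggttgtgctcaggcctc
The motifs were TGTTTAC (forkhead factors), CTTTGAT (TCF and LEF factors), CCNCNCCC (Krüppel-like factors), TGANTCA (AP-1 and BACH factors) and TTCNNNGAA (STAT factors), on both strands and with overlapping matches counted. The Klf3 region is 78.4% G or C and held 10 matches to the Krüppel-like motif, a number that 0.95% of 32851 RefSeq start regions reached, while 45.9% held at least 1. The Foxp1 region held 3 such matches and that of Satb1 1. Satb1 has 5 RefSeq starts and Foxp1 3, and the regions of a gene differed. The Satb1 start 643 bases away had a region of 80.8% G or C with 7 such matches, against 58.0% at the region shown. The farthest Foxp1 start had a region of 74.0% G or C, against 60.8% at the region shown. The Bach2 region, 178631 bases inside the annotated gene, held 1 match to the STAT motif, which 7.02% of the regions held. None of the 4 regions held the forkhead, the TCF and LEF or the AP-1 and BACH motif, which 3.17%, 3.21% and 6.75% of all regions held. Over all 9 genes, the nearest start region of Dapl1 was the 1 with a forkhead match. A match is a description of letters and not a binding site.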

How the data were processed

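Counts of reads per gene symbol were deposited by the authors, with totals between 22002050 and 33049997 per library. The submitters' processing notes name TopHat and the mm10 build. No version, counter, annotation or strand setting is given in the sources used here. Per the labels' protocols, 1.3 µg of total RNA went into each library, with a kit that marks strand. If counting ignored strand, reads of antisense partners cannot be told apart. This touches Lef1, Foxo1, Bach2, Klf3 and Satb1, which share 13.7%, 7.78%, 5.4%, 3.59% and 0.673% of their exonic bases with an opposite-strand gene. Of the 50-base windows of each longest transcript, at most 4.78% (Foxp1) occurred in a transcript of another gene.

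The counts were analysed with edgeR 4.0.16 in R 4.3.3 (quasi-likelihood test, robust estimates, TMM scaling, group alone) over 12226 genes that passed filterByExpr (minimum count 10, minimum total 15). P-values were adjusted by Benjamini-Hochberg over all of them and called at 0.05. Alternatives were the replicate number as a block, DESeq2 1.42.0, its size factors, no filter, no robust estimation, and leaving out each library or number. SE is the log2 fold change over the square root of F, and other ± values are SD of 3 libraries. Exact permutation of 3 against 3 cannot give p below 0.10. On simulated counts of 12130 genes the unpaired fit recovered 58.2%, 86.4% and 98.5% of genes changed 1.5-fold, 2-fold and 4-fold. The simulation gave same-numbered libraries nothing in common, unlike the real ones, so these rates may not hold here.

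Deviations of same-numbered libraries from their group means correlated at 0.413, 0.208 and 0.508 over 12226 genes, above the limit of 0.1 in every pair. The libraries were therefore treated as paired by the numbers of the sample titles. The titles do not say that same-numbered libraries came from the same experiment, and what they share was not tested. The series text names independent experiments but not animals, so p-values measure the spread between these libraries. Chi-square per degree of freedom between libraries of a group was 4.99 to 36.7, so no library was a repeat of another within counting noise.

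The 9 genes and the lists were chosen with earlier results of these data known. The naming rule takes the 9 genes, Ccr7, Il7r, S1pr1, Il9, each list's called genes in either fit, up to 3 further genes of smallest p per list, and nearest profiles among genes of at least 5 CPM. A further gene of the rule is not reported here. Other marker and low genes named fall outside it and were chosen after their values were seen. Symbols absent from the files were looked up as RefSeq synonyms. Coordinates (1-based) and lengths are from GENCODE M21 (GRCm38, the assembly of mm10), and start regions from RefSeq.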

Additional observations from a re-analysis of the deposited data

How the results depend on the processing

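The replicate block raised the count of called genes to 866, against 59 without it, with 3 of the 9 genes higher and 1 lower. The block called 10 naive and quiescence genes, 10 FOXO1 and KLF2 target genes, 11 activated T cell genes in place of 1, and 1 paralog of the list. Partners of TCF1 and LEF1 stayed at 0, and 1 of them had an unadjusted p under 0.05 in the group-only fit. DESeq2 called 282 genes, 2 of the 9 higher and 1 lower, and 3, 2, 2 and 1 genes of those 4 lists. With no filter on low counts 147 genes were called, 1 of the 9 lower (Satb1), and 1 FOXO1 and KLF2 target. Leaving out a library or a number without the block, the count of all genes lay between 0 (without both libraries numbered 2) and 66, it was 6 without SPC library 2 and 6 without control library 2, that of lower members between 0 and 1, that of activated T cell genes between 0 and 1, and the median of the 9 genes between -0.0293 and 0.140. With the block and a number left out, 2112, 699 and 562 genes were called without numbers 1, 2 and 3. In those fits 4, 2 and 2 of the 9 genes were higher and 2, 1 and 1 lower, with 17, 5 and 3 naive and quiescence genes, 11, 4 and 6 target genes, 16, 6 and 6 activated T cell genes, and without number 1 also 2 partners and 5 paralogs. Klf3, Bach2 and Satb1 kept their call in all 3, Foxp1 in 1, and Lef1 (higher) and Foxo1 (lower) were called without number 1. Few libraries remain in those fits beside their terms, and their p-values lean on spread shared between genes. A kept call there is a description and not separate support. By the longest transcript, 2 genes in SPC and 2 in control cells kept their rank by level. No call of the 9 genes turned direction in any setting run. Why the counts moved was not tested. The counting error was largest for Dapl1 and Klf2 among the 9 genes, at 16.4% and 11.5% at their lowest counts.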
